A study of Homo sapiens with 16 samples.

Results

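Human embryonic stem cells harvested 72 h after siRNA transfection were compared with cells harvested 48 h after it, and genes were sought that differed alike whichever target had been knocked down. The comparison used 12 of the 16 libraries of the series, 6 from each time, chosen by the harvest time in the labels. The 72 h libraries came from knockdown of DSCC1, a subunit of the alternative clamp loader that serves sister chromatid cohesion, and of SEPHS1, a selenophosphate synthetase homologue (n = 3 each). The 48 h libraries came from knockdown of SALL4, a zinc finger protein that stem cells need for self-renewal, and of VRTN, a vertebral development factor expressed in primed stem cells (n = 3 each). The other 4 libraries were the controls, 2 with siRNA against Renilla luciferase and 2 labelled Control siRNA, and the labels give no harvest time for them.

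All groups were H9 cells, a human embryonic stem cell line, that carry EGFP under the Rex1 promoter, and all were plated on Matrigel in mTeSR1 medium with 30 to 50 nM siRNA, per the labels' protocols. Enzymatically prepared pools served for SALL4, DSCC1, SEPHS1 and luciferase, and the VRTN pool came from another maker. The labels give the same hour of medium change for all groups. Cells harvested at 72 h were therefore further past that change than cells harvested at 48 h. The part of this longer interval in the results was not tested. Polyadenylated RNA was read as 80 bp single ends. Because each target was harvested at 1 time only, harvest time and target cannot be told apart, and a gene that differs in this comparison differs between 2 targets and 2 others as well as between 2 times. In bulk RNA, fewer cells of a type and less RNA per cell also cannot be told apart.

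Primed human stem cells grow as tight epithelial colonies held together by E-cadherin, and between passages these colonies spread, fuse and become dense. When such cells leave the epithelial state, E-cadherin and claudins go down while N-cadherin, vimentin and fibronectin go up, a change driven by repressors of the SNAI and ZEB families that bind E-box sequences. Stem cells in mTeSR1 receive FGF and TGF-beta family signals from the medium, and DUSP6, the Sprouty genes and LEFTY2 are feedback genes that report on them.

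Library totals ran from 18597262 to 28662389 counts with means of 23525301 counts at 72 h and 23688598 counts at 48 h (exact permutation test, two-sided, p = 0.903, n = 6 each). The share of counts from the mitochondrial genome was 33.6, 38.8 and 45.5% at 72 h (lowest, median, highest), 26.4, 32.9 and 36.9% at 48 h, and 27.9 to 33.4% in the controls. The ranges of the 72 h and 48 h libraries overlapped, and the difference in means of 5.93 percentage points had an exact permutation p of 0.0368, or 0.092 after Benjamini-Hochberg adjustment over 5 library measures. These permutation tests took libraries as units, so they do not measure the spread between the knockdowns of a time. The share was 33.6 to 39.2% after DSCC1 and 38.7 to 45.5% after SEPHS1 knockdown. It was 26.4 to 34.8% after SALL4 and 29.2 to 36.9% after VRTN knockdown. SEPHS1 replicates 1 and 3 had the fewest detected genes, 16464 and 16581, against 17566 to 19218 in the other libraries. The stem cell markers POU5F1 and SOX2 were present throughout, at 186 to 224 and 185 to 227 CPM (counts scaled by library total and TMM factor) at 72 h, against 204 to 262 and 190 to 234 CPM at 48 h. ZFP42, the gene also called REX1, had 0 counts in all 16 libraries.

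The mean of each knocked-down gene was lowest in the libraries labelled for it, with single libraries overlapping for DSCC1 and SALL4. DSCC1 had 0.601, 0.938 and 0.879 CPM in its own knockdown, 0.245, 1.79 and 3.27 CPM after SEPHS1 knockdown, 1.43 to 4.64 CPM in the 48 h libraries and 3.30 to 5.16 CPM in the controls. SEPHS1 had 79.3, 49.1 and 54.2 CPM in its own knockdown and 349 to 358 CPM after DSCC1 knockdown, against 174 to 397 CPM at 48 h and 381 to 440 CPM in the controls. VRTN had 19.3, 20.8 and 23.7 CPM in its own knockdown, against 119 to 162 CPM at 72 h, and was 136 to 155 CPM after SALL4 knockdown and 134 to 154 CPM in the controls. SALL4 had 193, 213 and 235 CPM in its own knockdown, against 234 to 266 CPM at 72 h, 248 to 281 CPM after VRTN knockdown and 243 to 303 CPM in the controls. VRTN and SEPHS1 were therefore called between the times through their own knockdowns, and none of the 4 targets was among the genes counted as shared below.

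Of 19772 genes tested, 1011 differed between the 72 h and the 48 h knockdowns (5.11%, edgeR's quasi-likelihood test, Benjamini-Hochberg adjusted p under 0.05). At 72 h 425 were higher (2.15%) and 586 were lower (2.96%), and 81 of the higher and 213 of the lower genes changed at least 2-fold. Most of these calls did not hold for every pair of knockdowns. All 4 pairs of 1 knockdown from each time had the same sign in 922 of the 1011, yet only 47 were called in all 4 pairs and 172 were called in none. A difference between the 2 knockdowns of a time was called in 487 of all tested genes (2.46%) and in 143 of the 1011. With the spread estimated between knockdowns (2 against 2) in place of libraries, 2 genes were called, GBX2 and AL009031.1. An unadjusted p under 0.05 was found in 1600 of the 19772, where chance alone gives a share of about 0.05. This fit summed the libraries of each knockdown and so does not see their spread. GBX2 had 2.05 CPM in SALL4 replicate 3 and 0.863 CPM in VRTN replicate 3, against 0.139 to 1.42 CPM at 72 h, so its times overlapped. With a minimum change of 1.5-fold in the test 91 genes were called.

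A gene was counted as shared when it was called in the mean contrast, called in the same direction in all 4 pairs, and had every 72 h library outside the range of the 48 h libraries. This held for 43 genes (0.217%), 21 of them higher at 72 h (0.106%) and 22 lower (0.111%). Over all tested genes, 340 had the 6 libraries of 72 h wholly outside the range of the 6 libraries of 48 h (1.72%), 183 above (0.926%) and 157 below (0.794%). The rule read these same values, so the figures that follow describe the 43 genes and do not test them. The count of 43 ranged from 18 without DSCC1 replicate 3 to 78 without Luciferase replicate 1, and 8 genes stayed shared whichever library was left out: PYGM, RIC1, FN1, ERRFI1, ENTREP1, PRICKLE1, CDH2 and LINC03040.

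**Figure D1:**
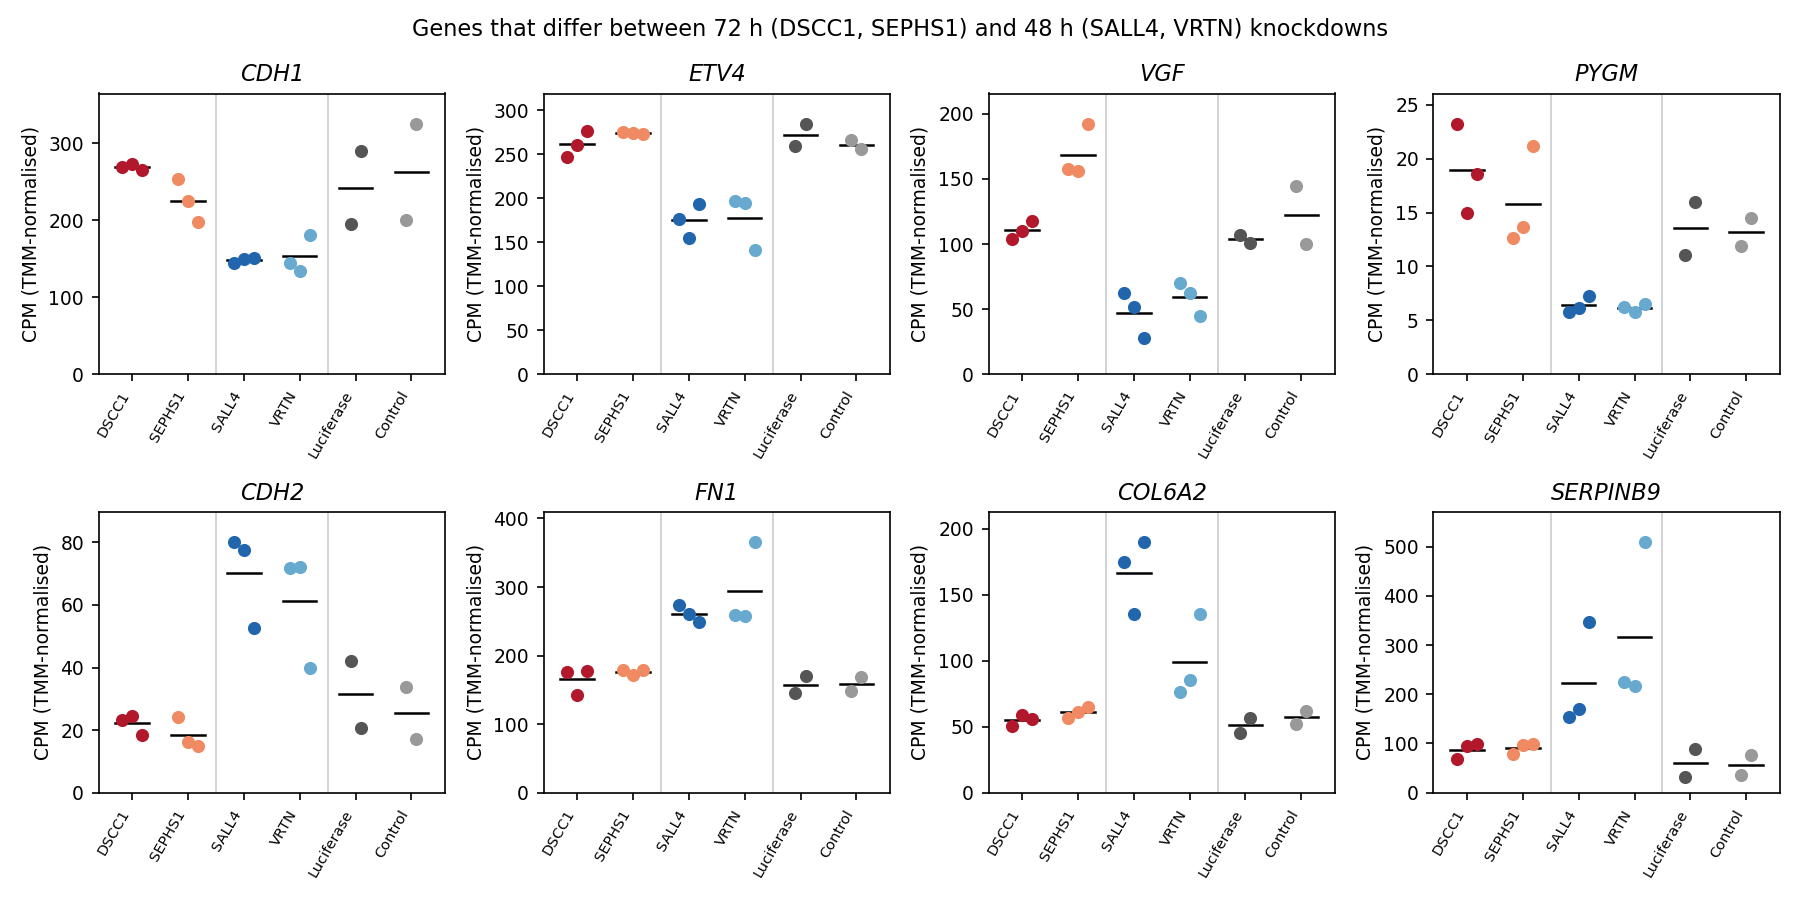
TMM-normalised CPM of 8 of the 43 shared genes in each of the 16 libraries, on linear axes that start at 0. Points are libraries and horizontal bars are group means. For CDH1 the 72 h libraries sit at 198 to 273 CPM, all above the 48 h libraries at 135 to 180 CPM, and for CDH2 they sit at 15.0 to 24.4 CPM, all below the 48 h libraries at 39.8 to 80.1 CPM.

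The classical cadherins moved in opposite directions. CDH1, the E-cadherin gene on chromosome 16 (68737225 to 68835548, GRCh38, GENCODE 29), had 198, 260 and 273 CPM at 72 h (lowest, median, highest) against 135, 147 and 180 CPM at 48 h, which is 0.71 ± 0.11 on the log2 scale (fold change ± SE from edgeR's quasi-likelihood test, adjusted p = 4.11e-05). The groups did not overlap, and the controls, at 195 to 325 CPM, all lay above the 48 h libraries. CDH2, the N-cadherin gene on chromosome 18 (27950966 to 28177446), had 15.0, 20.98 and 24.4 CPM at 72 h against 39.8, 71.9 and 80.1 CPM at 48 h, a log2 fold change of -1.70 ± 0.18 (adjusted p = 1.89e-07). Here too the groups did not overlap, while the controls spanned 17.0 to 42.2 CPM and reached the lowest 48 h library. CDH6, a type II cadherin of kidney and neural crest, had 11, 19, 0, 2, 0 and 0 counts in the 72 h libraries, against 401, 323, 79, 240, 243 and 48 counts in the 48 h libraries. Every 48 h library was above every 72 h library, and no fold is given because 4 of the 6 libraries of 72 h held fewer than 3 counts. CDH3, the P-cadherin gene that neighbours CDH1 on chromosome 16, was higher at 72 h by 0.57 ± 0.09 on the log2 scale (adjusted p = 0.000159) with no overlap, but was not called in every pair.

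Of 20 tested members of the epithelial junction and keratin list, 11 were called higher, 0 lower and 9 were not called, 3 of them with a negative log2 fold change. Over all tested genes 2.15% were called higher. The list had a median log2 fold change of 0.49, against -0.03 over all tested genes. Its summed level did not separate the times. The sum was 2375 to 2465 CPM after DSCC1 and 2044 to 2228 CPM after SEPHS1 knockdown. At 48 h it was 2001 to 2236 CPM after SALL4 and 1897 to 1984 CPM after VRTN knockdown. The 72 h libraries lay wholly above those of 48 h in 4 of the 20 members, against 0.926% of all tested genes. CLDN7, a tight junction claudin, had 51.8, 71.4 and 74.6 CPM at 72 h against 16.9, 26.5 and 54.8 CPM at 48 h, a log2 fold change of 1.19 ± 0.20 (adjusted p = 0.000161). Its groups overlapped through VRTN replicate 3 alone, whose 54.8 CPM exceeded the lowest 72 h library. The other members called higher were CLDN3 and CLDN4 (claudins), EPCAM (an epithelial adhesion molecule), KRT18 (a simple epithelial keratin), TJP1 (the tight junction scaffold ZO-1), RAB25 (an epithelial trafficking GTPase), ESRP1 (an epithelial splicing regulator) and GRHL2 (an epithelial transcription factor), besides CDH1 and CDH3. In the pair DSCC1 minus SALL4 the list's median was 0.55 and in SEPHS1 minus VRTN, which shares no library with it, 0.44. limma-voom called 10 higher and 1 lower. The count of 11 was 6 without SALL4 replicate 2 and 7 without VRTN replicate 1, and 5 with the mitochondrial share as a covariate, an alternative added after seeing the data.

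Of 23 tested members of the mesenchymal list, 14 were called lower, 1 was called higher and 8 were not called, with a median log2 fold change of -0.84, against 2.96% called lower over all tested genes. The pair medians were -0.98 and -1.41 for DSCC1 and SEPHS1 minus SALL4, and -0.33 and -0.63 for DSCC1 and SEPHS1 minus VRTN. The 72 h libraries lay wholly below those of 48 h in 3 of the 23 members, against 0.794% of all tested genes. They lay wholly above in 1, against 0.926%. The summed level of the list did not separate the times: it was 3606 to 4001 CPM after DSCC1 knockdown and 2765 to 3079 CPM after SEPHS1 knockdown, against 3626 to 4751 CPM after SALL4 knockdown and 2888 to 3319 CPM after VRTN knockdown. VIM, the vimentin gene, had 254, 361 and 482 CPM at 72 h against 461, 814 and 1169 CPM at 48 h, a log2 fold change of -1.12 ± 0.14 (adjusted p = 2.17e-06). The highest 72 h library was DSCC1 replicate 3 and the lowest 48 h library was VRTN replicate 3, and these overlapped. FN1, the fibronectin gene, had 143, 177 and 180 CPM at 72 h, against 249, 260 and 366 CPM at 48 h, a log2 fold change of -0.70 ± 0.09 (adjusted p = 5.58e-06), with no overlap. COL6A2, a collagen VI chain, had 50.8, 57.6 and 65.1 CPM at 72 h against 76.3, 135 and 190 CPM at 48 h, and its log2 fold change was -1.15 ± 0.12 (adjusted p = 1.14e-07).

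Among the other mesenchymal genes called lower were ZEB2 and SNAI2, repressors of the epithelial state, ACTA2, the smooth muscle actin, and COL5A1, COL5A2 and COL6A1, fibrillar and beaded-filament collagens. ZEB1 (-1.30), SNAI1 (0.40) and TWIST1 (0.07) were not called, and COL1A1, the main chain of collagen I, was higher at 72 h by 1.00 on the log2 scale. Of a separate list of 8 fibroblast markers 5 were tested, COL1A1 was called higher and COL1A2 and PDGFRB lower. COL1A2 had 24.0 to 42.8 CPM at 72 h against 32.0 to 71.2 CPM at 48 h, and PDGFRB 2.34 to 15.7 CPM at 72 h against 6.37 to 28.5 CPM at 48 h. COL3A1 and POSTN stayed at or below 0.597 and 0.972 CPM at 72 h and 1.55 and 1.67 CPM at 48 h. LUM and DCN stayed at or below 0.0427 and 0.0782 CPM at 72 h and 0.340 and 0.170 CPM at 48 h, and FAP had no count in any library. The summed level was 1320 to 1964 CPM at 72 h, 532 to 1343 CPM at 48 h and 1579 to 1834 CPM in the controls, nearly all of it COL1A1, and the part of such cells in the result was not tested. The 14 called lower were 8 without SALL4 replicate 1 or without VRTN replicate 1, 9 without VRTN replicate 2, 8 with limma-voom and 6 with the mitochondrial share as a covariate. Within the 12 knockdown libraries, VIM was 1038 to 1169 CPM after SALL4 knockdown and 461 to 590 CPM after VRTN knockdown, so for VIM the distance between the times was larger against SALL4 than against VRTN.

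**Figure D2:**
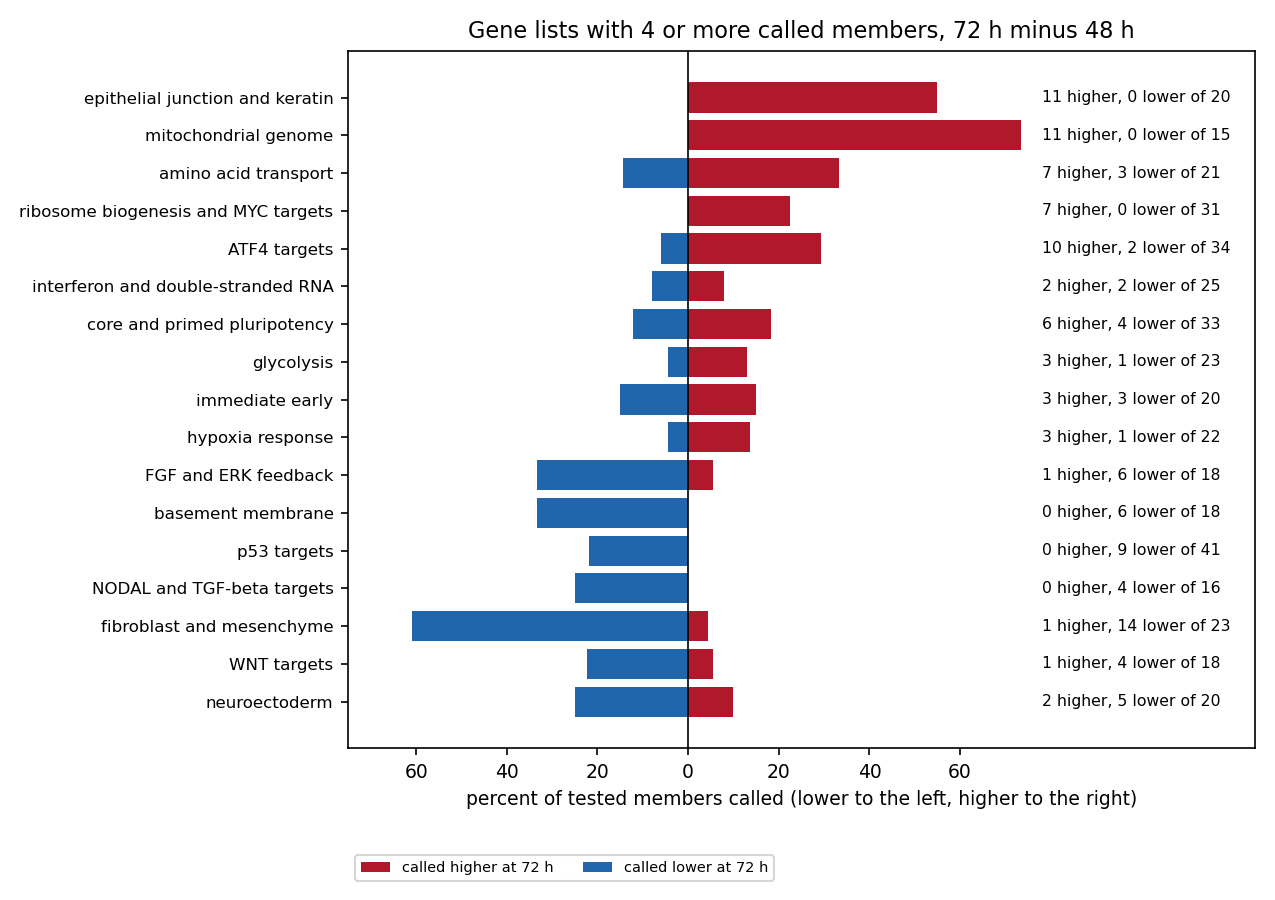
Percent of the tested members of each gene list called higher (right, red) or lower (left, blue) at 72 h than at 48 h, for lists with 4 or more called members, ordered by median log2 fold change. The epithelial list has 11 of 20 called higher and the fibroblast and mesenchyme list 14 of 23 called lower.

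The promoters of these genes are shown because the 2 sides of the epithelial state are classically told apart by E-boxes bound by SNAI and ZEB repressors. The motif searched was CAGGTG or its reverse complement CACCTG on both strands in the 250 bases before the start in the RefSeq promoter table (GRCh38.p14), which holds 2 starts each for CLDN7 and CDH2 and from which the CLDN7 start with more matches was taken. The CLDN7 stretch lies at chr17:7262479-7262728 on the minus strand and the CDH2 stretch at chr18:28177131-28177380 on the minus strand, and capitals mark the motif.
CLDN7: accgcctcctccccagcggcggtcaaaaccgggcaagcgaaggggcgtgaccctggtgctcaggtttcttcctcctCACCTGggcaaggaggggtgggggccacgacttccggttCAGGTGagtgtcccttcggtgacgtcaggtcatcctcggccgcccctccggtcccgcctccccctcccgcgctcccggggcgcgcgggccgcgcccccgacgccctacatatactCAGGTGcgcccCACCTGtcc
CDH2: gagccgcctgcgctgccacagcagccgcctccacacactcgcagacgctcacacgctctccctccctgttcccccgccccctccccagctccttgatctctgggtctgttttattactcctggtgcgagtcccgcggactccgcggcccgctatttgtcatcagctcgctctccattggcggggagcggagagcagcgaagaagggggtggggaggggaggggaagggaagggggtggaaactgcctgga
The CLDN7 window held 4 matches, at 174, 135, 20 and 9 bases before the start, and the CDH2 window held 0. The starts were not chosen alike: for CDH2 the start at the highest coordinate was taken, whatever its matches. The other CDH2 start is not shown, so 4 against 0 does not compare the genes like for like. A match was present for 7 of the 11 epithelial list genes with an entry in the table (63.6%), 2 of 13 mesenchymal list genes (15.4%) and 20.6% of all 27305 genes, and for 3 of 11 shared genes that were higher and 4 of 16 that were lower. CDH1, CDH3 and CDH6 had no entry. A gene counted as matched when any of its starts held the motif, so genes with more starts had more chances of a match. List genes without an entry were left out, and the lists were chosen with earlier results of these data known. These are letter matches, and binding was not measured.

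The genes shared and higher at 72 h included VGF, PYY, CREB3L1 and POU2F3. VGF, the precursor of several neuropeptides, had 104, 137 and 192 CPM at 72 h against 27.5, 57.1 and 70.4 CPM at 48 h, a log2 fold change of 1.37 ± 0.14 (adjusted p = 8.71e-08). PYY, a gut peptide hormone, had 38.2, 43.6 and 48.6 CPM at 72 h against 10.1, 19.3 and 25.7 CPM at 48 h, a log2 fold change of 1.22 ± 0.18 (adjusted p = 3.18e-05). Both were without overlap between the times. CREB3L1, a membrane-bound factor of secretory cells, was higher by 1.13 ± 0.13, and POU2F3, the factor of tuft cells, by 1.94 ± 0.31 on the log2 scale from a low level of 0.892 to 3.67 CPM at 48 h.

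Among the 21 genes the largest relative rise was that of LINC03040, which had 6.61, 12.8 and 17.3 CPM at 72 h against 0.576, 2.12 and 3.82 CPM at 48 h (log2 fold change 2.48 ± 0.25, adjusted p = 1.09e-07), and the controls had 12.6 to 21.8 CPM. PYGM, the muscle glycogen phosphorylase, had 12.7, 16.8 and 23.3 CPM at 72 h against 5.75, 6.16 and 7.29 CPM at 48 h, a log2 fold change of 1.46 ± 0.19 (adjusted p = 6.03e-06). The noncoding LINC01356 was higher by 1.33 ± 0.13 and TTC39C by 1.06 ± 0.19. The tubulins TUBA4A (0.90) and TUBB4A (0.78), the actin-bundling ESPN (0.93) and the junction protein CGNL1, or paracingulin (0.81), were higher without overlap as well. Other shared genes that were higher were ZDHHC22, SAMHD1 (a deoxynucleotide hydrolase), ERRFI1 (an inhibitor of EGF receptor signalling), ETV4 (an ETS factor downstream of FGF), BCL9L (a beta-catenin cofactor), NOLC1 (a nucleolar protein) and PRR13P5, at 0.57 to 0.78 on the log2 scale. PRR13P5 is annotated as a processed pseudogene, so its counts may include reads of its parent gene.

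The genes shared and lower at 72 h included IER3, SERPINB9, APCDD1, SLC16A10, FBN2 and MCHR1. IER3, an early response gene of the ERK pathway, had 35.5, 58.8 and 71.9 CPM at 72 h against 96.8, 151 and 367 CPM at 48 h, a log2 fold change of -1.66 ± 0.15 (adjusted p = 9.53e-09). SERPINB9, the granzyme B inhibitor, had 68.1, 95.0 and 98.9 CPM at 72 h against 154, 220 and 509 CPM at 48 h, a log2 fold change of -1.58 ± 0.22 (adjusted p = 1.12e-05). Its 4 controls, at 32.1 to 89.6 CPM, overlapped the 72 h libraries or lay below them, and all lay below those of 48 h. APCDD1, a WNT inhibitor, fell by 2.29 ± 0.32, SLC16A10, an aromatic amino acid transporter, by 2.23 ± 0.27, and FBN2, a fibrillin of the extracellular matrix, by 2.05 ± 0.23 on the log2 scale. MCHR1, the melanin-concentrating hormone receptor, had 56, 81, 41, 0, 16 and 17 counts at 72 h against 761, 662, 97, 394, 312 and 308 counts at 48 h, and its fitted log2 fold change of -3.79 ± 0.41 leans on the library with 0 counts.

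The other shared genes that were lower were PCDH18 (a protocadherin), FEZ1, RFLNB (refilin B), MXD4 (a MYC antagonist), ADCY2 (an adenylate cyclase), PRICKLE1 (a planar polarity protein), ENTREP1, UBE2H (a ubiquitin-conjugating enzyme), FZD5 (a WNT receptor), RIC1, HIVEP1 and NLGN4X (a neuroligin), at -0.74 to -1.68. Of all 43 shared genes, IER3, PCDH18, COL6A2 and FEZ1 also differed between the 2 knockdowns of a time. COL6A2 averaged 167 ± 28.3 CPM after SALL4 knockdown and 99.1 ± 32.0 CPM after VRTN knockdown, and IER3 averaged 297 ± 98.2 and 110 ± 11.7 CPM in these groups (SD, n = 3 each).

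Feedback genes of FGF and ERK signalling were lower at 72 h in 6 of 18 tested members and higher in 1, against 2.96% called lower and 2.15% called higher over all tested genes. The list's median was -0.41 in DSCC1 minus SALL4 and -0.34 in SEPHS1 minus SALL4, but -0.05 in DSCC1 minus VRTN and -0.08 in SEPHS1 minus VRTN. DUSP6, the ERK phosphatase, had 19.7, 25.2 and 34.9 CPM at 72 h against 32.2, 55.5 and 93.3 CPM at 48 h, a log2 fold change of -1.16 ± 0.15 (adjusted p = 7.10e-06), with a narrow overlap. SPRY2 (-0.91), SPRY4 (-0.65) and IL17RD (-0.75), feedback inhibitors of FGF receptors, and the receptor EPHA2 (-0.56) fell with IER3. ETV4, a transcription factor induced by the same pathway, went against them, with 246, 273 and 276 CPM at 72 h against 141, 185 and 197 CPM at 48 h and a log2 fold change of 0.60 ± 0.09 (adjusted p = 2.13e-05). The number called lower was 2 with the mitochondrial share as a covariate.

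For the NODAL and TGF-beta target list 4 of 16 members were lower and 0 higher. Its median was -0.71 and -0.76 for DSCC1 and SEPHS1 minus SALL4, but -0.15 and -0.23 for DSCC1 and SEPHS1 minus VRTN. For this and the next 2 lists, 2.96% of all tested genes were called lower and 2.15% higher. LEFTY2, a secreted inhibitor of NODAL, had 0.832, 2.10 and 2.59 CPM at 72 h against 5.11, 6.23 and 13.5 CPM at 48 h, a log2 fold change of -1.97 ± 0.38 (adjusted p = 0.000983), without overlap. LEFTY1, its paralogue (-1.18), PMEPA1 (-0.78) and SMAD7 (-0.68), inhibitors of SMAD signalling, were lower as well; LEFTY1 and LEFTY2 are near-identical copies whose reads the counting could split. Of the WNT target list 4 of 18 were lower and 1 higher. SP5, a direct WNT target, had 0, 0.913 and 1.56 CPM at 72 h against 0.682, 6.42 and 21.7 CPM at 48 h and was called lower together with APCDD1, FZD5 and FZD7, while ZNRF3, a negative regulator of WNT receptors, was higher by 0.48. With the mitochondrial share as a covariate 1 NODAL and TGF-beta target and 2 WNT targets were lower, and limma-voom also called 2 WNT targets lower. Of 15 primitive streak genes 3 were lower, WNT3 (-3.65 ± 0.53), SP5 and APLNR, the last detected in only 1 library of 72 h. These 3 genes lay at or below 1.56 CPM in every 72 h library. The primitive streak median was -2.49 and -1.92 for DSCC1 and SEPHS1 minus SALL4, but -0.32 and -0.42 for DSCC1 and SEPHS1 minus VRTN.

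Of 20 tested neuroectoderm genes 5 were lower and 2 higher, against 2.96% called lower and 2.15% called higher over all tested genes. CDH2 was followed by SOX21 (-2.54 ± 0.44), FEZF1 (-1.33 ± 0.21), ZNF521 (-1.40) and SOX3 (-0.67), transcription factors of early neural fate, while HES3 and NES, the nestin gene, were higher by 0.99 and 0.33. The SOX21 fold includes SEPHS1 replicate 1 at 0.0489 CPM, under the floor of 3 counts. The other 72 h libraries held 1.25 to 3.15 CPM of SOX21. Without VRTN replicate 1, and with the mitochondrial share as a covariate, 3 were lower. Of 6 neural markers, SOX1, DCX and TUBB3 were tested and not called; they reached at most 1.02, 1.85 and 2.87 CPM in the 72 h libraries and 4.43, 3.54 and 4.03 CPM in the 48 h libraries. PAX6, NEUROG2 and STMN2, too low to be tested, reached at most 0.384, 0 and 0.370 CPM in the 72 h libraries and 1.36, 0.256 and 0.492 CPM in the 48 h libraries. Of 18 basement membrane genes 6 were lower, among them COL18A1 (-0.73 ± 0.09), LAMC1 (-0.60 ± 0.11) and LAMA5 (-0.37 ± 0.10), the number being 2 without SALL4 replicate 1, DSCC1 replicate 1 or VRTN replicate 2 and with limma-voom, 3 without SALL4 replicate 2 or DSCC1 replicate 2, and 1 with the mitochondrial share as a covariate.

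Of 33 tested pluripotency genes 6 were higher and 4 lower, against 2.15% called higher and 2.96% called lower over all tested genes. DNMT3B, the de novo DNA methyltransferase, had 1091, 1135 and 1169 CPM at 72 h against 378, 823 and 1121 CPM at 48 h, a log2 fold change of 0.67 ± 0.09 (adjusted p = 8.82e-06). Its ranges at the 2 times overlapped. The summed level of the stem cell markers, DNMT3B among them, was 5240 to 5479 CPM at 72 h. At 48 h the sum was 4077 to 4367 CPM after SALL4 and 5501 to 5805 CPM after VRTN knockdown, so only the SALL4 libraries lay below those of 72 h. GAL, the galanin precursor, was higher by 1.11 ± 0.14 without overlap. NANOG had 64.7, 76.7 and 101 CPM at 72 h against 76.1, 116 and 158 CPM at 48 h, a log2 fold change of -0.59 ± 0.12 (adjusted p = 0.00264), with SALL4 replicate 3 as the lowest 48 h library. POU5F1, SOX2 and LIN28A were not called (-0.22, -0.05 and 0.17).

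Genes of growth and amino acid supply were called higher at 72 h in a minority of each list's members, where 2.15% of all tested genes were. Of 31 tested genes of ribosome biogenesis and MYC targets 7 were higher and 0 lower, and 30 had a positive log2 fold change, with a median of 0.22. MYCN had 162, 168 and 174 CPM at 72 h against 105, 129 and 141 CPM at 48 h, a log2 fold change of 0.42 ± 0.09 (adjusted p = 0.00295), without overlap; MYC (0.39), SRM, the spermidine synthase (0.36), ODC1, ornithine decarboxylase (0.48), and POLR1A, the largest subunit of RNA polymerase I (0.45), were also called. Of 34 ATF4 targets 10 were higher and 2 lower, among them ASNS, asparagine synthetase (0.81), PCK2 (0.64), PSAT1 (0.41) and PHGDH (0.38), enzymes of the serine pathway or linked to it. Of 21 amino acid transporters 7 were higher, with SLC38A5 (0.95 ± 0.13), SLC7A5 (0.62 ± 0.09) and SLC1A5 (0.49 ± 0.09) leading, and 3 lower, SLC16A10, SLC1A3 and SLC38A2. The transporters' median was 0.26 in DSCC1 minus SALL4, 0.57 in DSCC1 minus VRTN, -0.01 in SEPHS1 minus SALL4 and 0.28 in SEPHS1 minus VRTN. Their summed level was 3376 to 3651 CPM after DSCC1 knockdown and 2714 to 2735 CPM after SEPHS1 knockdown, against 2743 to 3959 CPM after SALL4 knockdown and 1876 to 1972 CPM after VRTN knockdown, so each SEPHS1 library lay below all those of SALL4. SLC7A5, SLC1A5, SLC7A1, SLC3A2 and SLC38A2 stand in both lists. Leaving out SALL4 replicate 2 brought the ribosome biogenesis count to 3, leaving out SALL4 replicate 1, DSCC1 replicate 2, SEPHS1 replicate 1 or VRTN replicate 2 brought it to 4, and it was 3 with only SEPHS1 replicate 2 kept of its knockdown, and with the mitochondrial share as a covariate the 3 lists had 1, 3 and 4 members called higher.

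Of 41 p53 targets 9 were lower and 0 higher at 72 h, with a median of -0.41. Over all tested genes 2.96% were called lower and 2.15% higher. CDKN1A, the p21 cell cycle inhibitor (-1.04), MDM2, the ubiquitin ligase of p53 (-0.59), ZMAT3 (-1.28), TRIM22 (-1.28 ± 0.18) and PLK2 (-1.19 ± 0.22) were among them. The list's median was -0.83 in DSCC1 minus SALL4 and -0.57 in SEPHS1 minus SALL4, but -0.10 and 0.03 in the pairs with VRTN. The 72 h libraries lay wholly below those of 48 h in 0 of the 41 members, against 0.794% of all tested genes. The number called lower was 17 without SALL4 replicate 3, 6 without SALL4 replicate 1, SALL4 replicate 2, DSCC1 replicate 2, DSCC1 replicate 3 or VRTN replicate 1, 5 with limma-voom, 16 with enzymatic siRNAs only, which leaves out the VRTN knockdown, and 1 with the mitochondrial share as a covariate.

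All 15 tested transcripts of the mitochondrial genome had a positive log2 fold change and 11 were called higher, the list's median being 0.49. Over all tested genes 2.15% were called higher. MT-ND3, a complex I subunit, had 3596, 5039 and 10086 CPM at 72 h against 2418, 3312 and 3889 CPM at 48 h, a log2 fold change of 0.80 ± 0.12 (adjusted p = 2.79e-05), with SEPHS1 replicate 3 the highest library. The 11 were 7 without SALL4 replicate 2, DSCC1 replicate 3, SEPHS1 replicate 3 or VRTN replicate 1, 6 with DESeq2, and 1 with the mitochondrial share as a covariate. The 72 h libraries lay wholly above those of 48 h in 0 of the 15 transcripts, against 0.926% of all tested genes. Of 35 nuclear genes of the respiratory chain 0 were called by edgeR, DESeq2 or limma-voom, and 5 had an unadjusted p under 0.05 in edgeR. That level was passed by 3644 of all 19772 tested genes. With all mitochondrial counts left out the comparison gave 999 called and 44 shared genes.

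Of the 50 G1/S and replication genes 3 were higher, MCM5 (0.57), POLA1 (0.47) and CDT1 (0.32), and of 41 genes of G2/M and mitosis 1 was higher, CDC20 (0.34), and 1 lower, PRC1 (-0.41), against 2.15% called higher and 2.96% called lower over all tested genes. For cohesin (19 genes), homologous recombination (32), the ER unfolded protein response (21) and replication-dependent histones (15) 0 members were called by edgeR's quasi-likelihood test. At an unadjusted p under 0.05 there were 0 cohesin, 4 recombination, 5 unfolded protein response and 3 histone genes. Of all 19772 tested genes 3644 passed that level. DESeq2 called 1 gene in each of these lists other than cohesin.

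**Figure D3:**
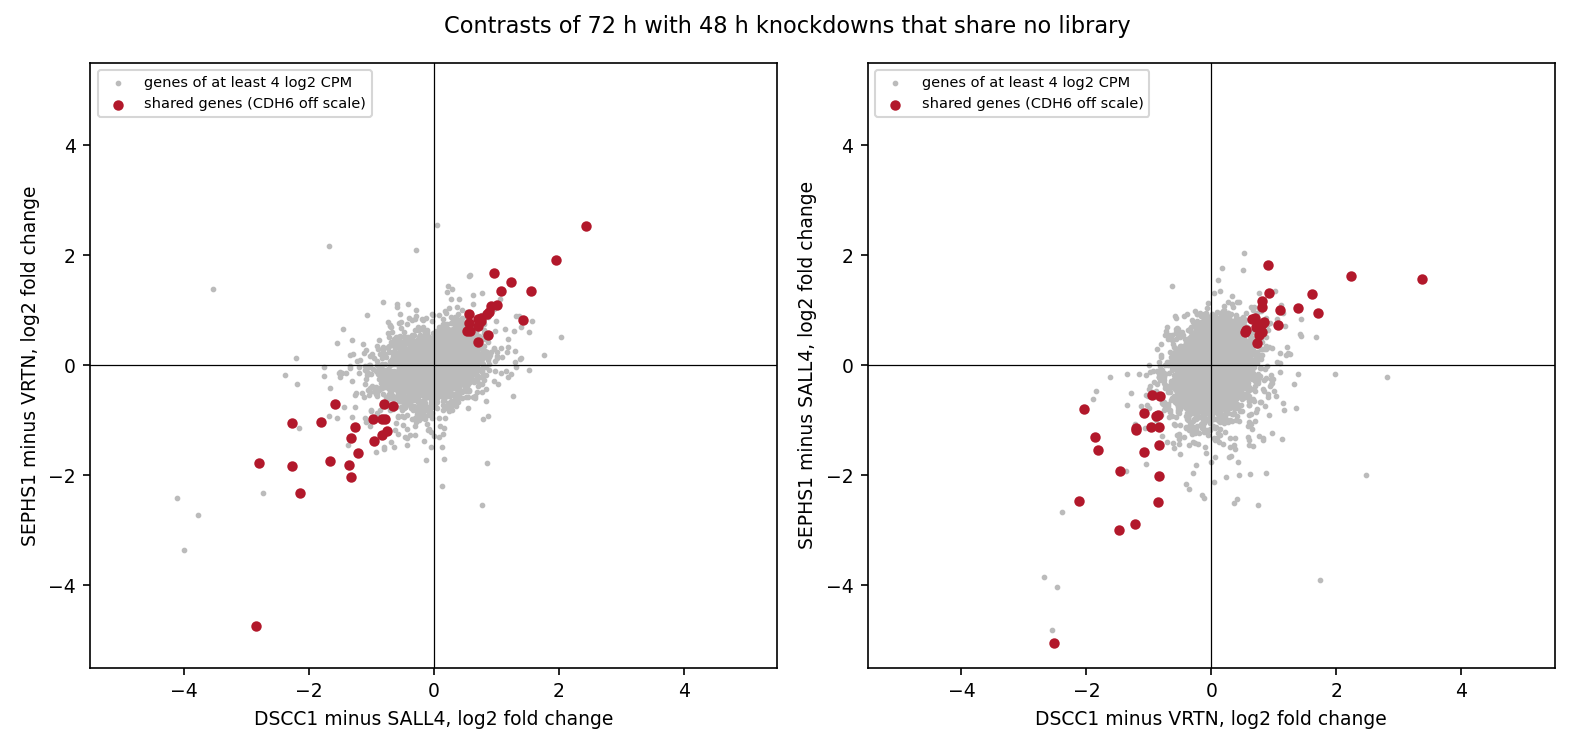
Log2 fold changes of the 72 h over the 48 h knockdowns in pairs that have no library in common, for 5639 genes averaging at least 4 log2 CPM (grey) and for the shared genes (red), which the rule places in the lower left and upper right corners. Over the grey genes Pearson's r is 0.34 on the left and 0.20 on the right.

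The 4 knockdowns can be paired so that the contrasts have no library in common. Over 5639 genes averaging at least 4 log2 CPM, the log2 fold changes of DSCC1 minus SALL4 and of SEPHS1 minus VRTN correlated across genes with Pearson's r of 0.343 and Spearman's rho of 0.296, and genes are not independent replicates. The first contrast called 616 genes (3.12%) and the second 433 (2.19%), and 107 were called in both, which is 17.4% of the first and 24.7% of the second. Of these, 35 were higher in both, 62 lower in both and 10 opposite. The other pairing, DSCC1 minus VRTN with SEPHS1 minus SALL4, gave an r of 0.202 and a rho of 0.136. It called 284 (1.44%) and 1146 genes (5.80%), with 92 in both, 34 higher in both, 40 lower in both and 18 opposite. Differences within a time numbered 53 for DSCC1 minus SEPHS1 (0.268%) and 482 for SALL4 minus VRTN (2.44%), so the 48 h knockdowns differed from each other in more genes than the 72 h knockdowns did.

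The 4 control libraries were placed on the same scale, where 0 is the mean of the 48 h libraries and 1 the mean of the 72 h libraries, on log2 CPM. Over the 43 shared genes the median position was 0.585 for Luciferase replicate 1, 0.913 for Luciferase replicate 2, 0.720 for Control replicate 1 and 0.871 for Control replicate 2, or 0.772 ± 0.150 over the libraries (SD, n = 4). The 72 h libraries lay at 0.936 to 1.06 and the 48 h libraries at -0.170 to 0.151, so that all 4 controls were nearer to the 72 h knockdowns. Over all 1011 called genes the mean position of the controls was 0.600, and Luciferase replicate 1 at 0.380 and Control replicate 1 at 0.485 were nearer to 48 h.

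**Figure D4:**
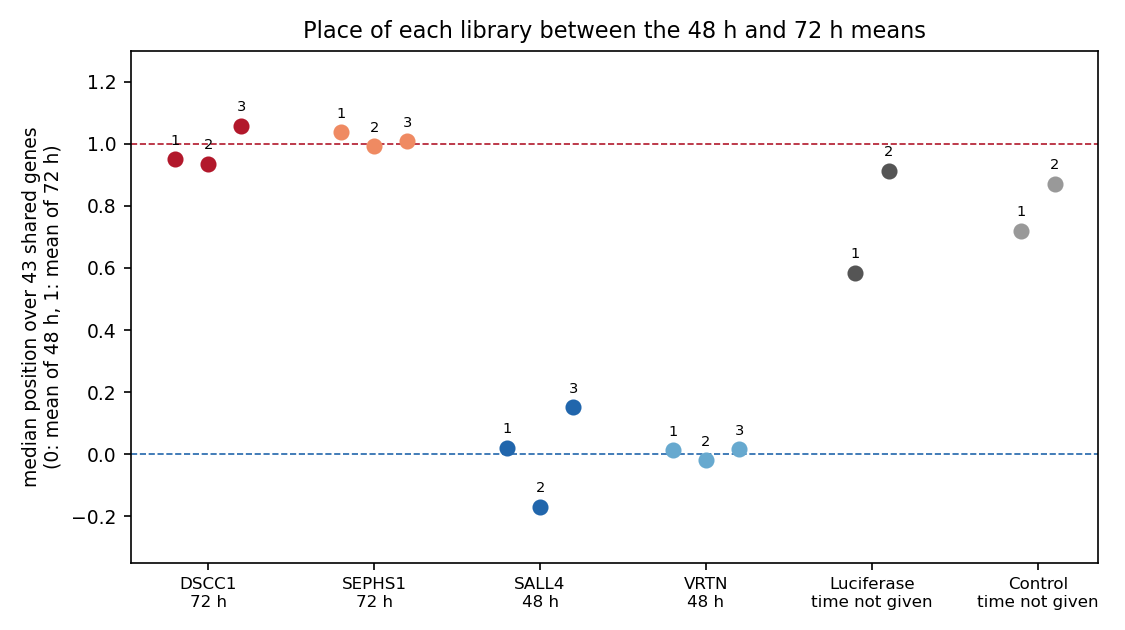
Median position of each library over the 43 shared genes on a scale where 0 is the mean of the 48 h libraries and 1 the mean of the 72 h libraries; small digits are replicate numbers. The controls, whose harvest time the labels do not give, lie at 0.585 to 0.913.

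Gene by gene, the mean of the controls fell within the 72 h range for 25 of the 43 shared genes, between the ranges for 11, within the 48 h range for 6 and beyond the 72 h range for 1. CDH1 (position 1.01), ETV4 (0.99), ERRFI1 (0.99), ENTREP1 (1.04), COL6A2 (1.09) and SLC16A10 (0.98) matched the 72 h level closely, whereas CDH6 (0.45), FBN2 (0.43), MCHR1 (0.37), PYY (0.46) and TUBB4A (0.31) lay between or nearer to 48 h. Set against the 48 h knockdowns, the controls differed in 334 genes (1.69%), 35 of the 43 among them. Set against the 72 h knockdowns they differed in 134 (0.678%), 3 of the 43 among them, FBN2, MCHR1 and CDH6. Both comparisons share libraries with the rule that chose the 43 genes, and a nearer position gives no harvest time.

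The control replicates themselves differed along this scale. In both siRNAs, replicate 2 lay nearer to 72 h than replicate 1. The contrast of control replicate 2 minus replicate 1 has no library in common with the knockdowns, and it called 3 genes (0.0152%), all lower in replicate 2, among them VIM (-1.14) and MYL4, a myosin light chain. At an unadjusted p under 0.05 there were 661 of 19772 tested genes, a share below the 0.05 that chance alone gives, and DESeq2 called 10. Its sign matched that of 72 h minus 48 h in 76.6% of the 1011 called genes, in 328 of 425 higher and 446 of 586 lower ones. In the control contrast alone, 48.9% of all tested genes were above and 48.9% below. Sign matches over all tested genes were not counted, so these shares are no baseline for the 76.6%. Among the shared genes 19 of 21 higher and 15 of 22 lower ones matched. Over 5639 genes the 2 contrasts correlated across genes with Pearson's r of 0.426.

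**Figure D5:**
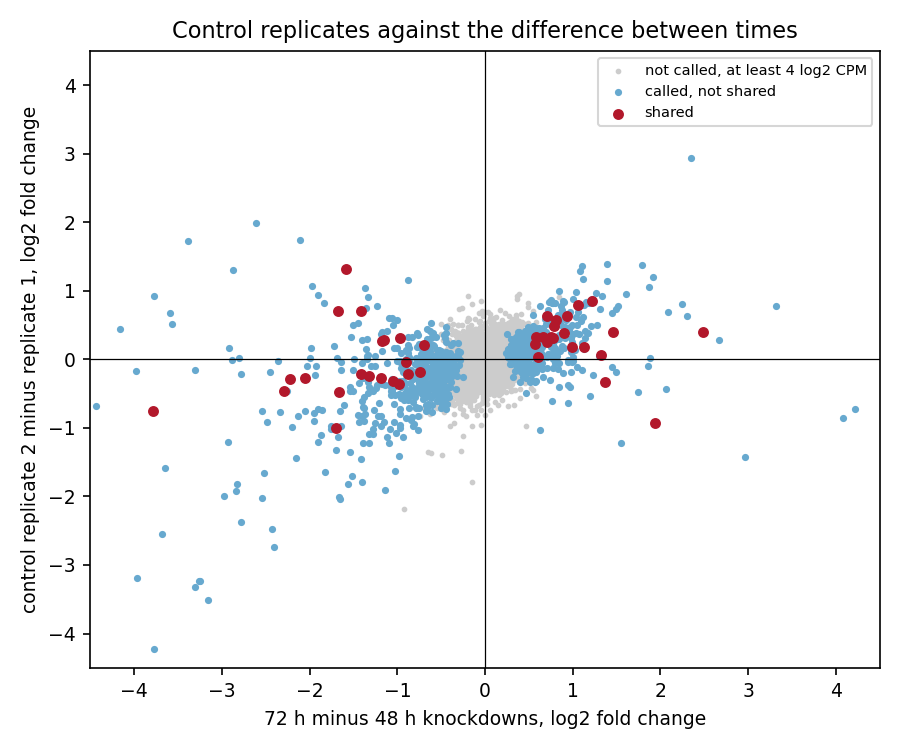
Log2 fold change of control replicate 2 over replicate 1 (vertical) against that of the 72 h over the 48 h knockdowns (horizontal), for genes not called (grey), called (blue) and shared (red); points beyond 4.5 are not drawn. Of 425 genes called higher 328 lie above 0, and of 586 called lower 446 lie below it.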

How the data were processed

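Raw gene counts of 16 poly(A) RNA libraries were used as deposited by the authors. Per the submitters' processing notes they name GRCh38, STAR 2.4.0.1 and HTSeq 0.9.1; strand setting, annotation release and treatment of shared reads are not given in the sources used here. The labels say that replicates were independent biological ones. The table holds 60675 identifiers, 41209 with a symbol in a table of gene names and 15846 with one in GENCODE 29, the source of positions, and 3620 with none.

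filterByExpr kept 19772 genes (40903 left out). TMM normalisation and edgeR 4.0.16's quasi-likelihood test (R 4.3.3) were fitted over all 16 libraries in 6 groups, and the mean of DSCC1 and SEPHS1 was set against the mean of SALL4 and VRTN. Calls needed a Benjamini-Hochberg adjusted p under 0.05 over all genes tested. Standard errors are the size of the log2 fold change over the square root of F. CPM are scaled to TMM-adjusted totals, and log2 CPM used a prior count of 2. Library measures were compared with exact permutation tests (scipy 1.17.1). Scripts were tested on simulated data.

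Named genes were the 4 targets, the 14 highest and 14 lowest shared genes averaging at least 2 log2 CPM, ranked by their smallest pair fold change, and up to 3 called members of each list with the smallest p. Other list members and shared genes were named after their values were seen. The members and lists were chosen with earlier results of these data known. A floor of 3 counts is 0.105 to 0.161 CPM of library totals. Reads carry no molecular identifiers, so depth limits cover counting error only. Alternatives used limma 3.58.1, DESeq2 1.42.0, other scalings and filters, and left-out libraries. Some genes are not reported here.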

Additional observations from a re-analysis of the deposited data

Results flagged for a closer look

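Dixon's test of the most extreme library was run on 345 sets of values, in the 72 h, 48 h and control libraries. The sets were the CPM, on the log2 scale, of the genes named here by the rule, and the library measures. Of the 345 sets 19 passed its 95% level, where chance gives about 1 in 20. In the 72 h libraries the extreme values were ALPG 11.7, KDR 71.7, LEFTY2 0.832 and SOX21 0.0489 CPM in SEPHS1 replicate 1, PALB2 19.7 and SCD 1974 CPM in SEPHS1 replicate 3, FN1 143 and APLNR 0.391 CPM in DSCC1 replicate 2, and ESPN 32.3 CPM in DSCC1 replicate 1. APLNR had 0 counts in the other libraries of 72 h. In the 48 h libraries they were FN1 366, FZD5 74.1, PRICKLE1 52.2 and LINC03040 0.576 CPM in VRTN replicate 3 and CGNL1 19.3 CPM in VRTN replicate 1. In the controls they were TUG1 85.7, HSP90AB1 1822, LAMA5 442 and MXD4 23.5 CPM in Luciferase replicate 1 and SLC16A10 1.97 CPM in Control replicate 2.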

How the results depend on the processing

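The count of 1011 called genes was 1013 with DESeq2's size factors, 1036 with upper quartile scaling, 1270 with DESeq2 and 801 with limma-voom, but 91 with a 1.5-fold minimum, 2 with the knockdown as the replicate and 216 with the mitochondrial share as a covariate, and 613 to 1503 with 1 library left out (613 without SALL4 replicate 2, 641 without VRTN replicate 1, 1503 without SALL4 replicate 3). The 43 shared genes became 81 with no filter, 26 with limma-voom, 318 with enzymatic siRNAs only, which leaves out VRTN and so asks for 2 pairs, and 0 with a 1.5-fold minimum, and 18 to 78 with 1 library left out. The cause of the shifts was not tested. Among the knockdown libraries, the only ones checked for pairing, not every same-numbered pair correlated over 0.1, so the numbers were not taken as a pairing: 5 of 18 correlations were over 0.1, from -0.11 to 0.38, the highest for replicate 3 of SALL4 and VRTN, and the replicate block gave 1257 called and 75 shared genes. With the knockdown as the replicate all 43 shared genes had an unadjusted p under 0.05 and 0 were called. The rule chose the 43 from the same libraries for their agreement over the knockdowns. Neither this count nor the one with the covariate below therefore tests them. With the mitochondrial share as a covariate 37 of the 43 were called, and with only 1 SEPHS1 library kept 807 genes were called and 30 shared, both added after seeing the data. The 3 genes of control replicate 2 minus 1 became 80 with no filter, 10 with DESeq2 and 8 with the siRNA as an additive term. The mean control position of 0.772 was 0.762 with DESeq2's size factors and 0.600 over all called genes. VRTN, called higher at 72 h through its own knockdown at 48 h, reversed to -0.0789 and was not called with enzymatic siRNAs only. CDH6, with most of its 72 h libraries under the floor of 3 counts, was given no fold. Folds were given for genes with a single 72 h library under it, such as MCHR1 and SOX21.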

Other observations

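GBX2, a homeobox factor of early neural and pluripotent cells, and TNC, the matrix protein tenascin C, split the libraries in a way that cuts across the groups. Both were looked at after their values were seen. GBX2 had 0.139, 1.13 and 0.694 CPM after DSCC1 knockdown, 1.42, 1.07 and 0.701 CPM after SEPHS1 knockdown, 29.3, 39.6 and 2.05 CPM after SALL4 knockdown and 23.5, 29.9 and 0.863 CPM after VRTN knockdown. TNC had 0.175 to 6.53 CPM in the 72 h libraries, 146, 121 and 6.48 CPM after SALL4 knockdown and 51.2, 45.5 and 3.54 CPM after VRTN knockdown. In the 48 h groups replicate 3 was thus at or near the 72 h level for both genes. The controls did likewise by replicate: GBX2 had 16.8 and 0.480 CPM in Luciferase replicates 1 and 2 and 15.7 and 1.497 CPM in Control replicates 1 and 2, and TNC had 52.5 and 7.96 CPM and 41.6 and 8.13 CPM in the same libraries. With a margin of at least 5-fold between the 2 sides, 2 called genes showed this split.

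Over genes of at least 4 log2 CPM the same replicates were compared. The difference of replicate 3 from replicates 1 and 2, averaged over SALL4 and VRTN on the log2 scale, correlated across 5639 genes with control replicate 2 minus replicate 1 (Pearson's r = 0.476) and had its sign in 3329 of them (59.0%), and the 2 differences have no library in common. It had the sign of 72 h minus 48 h in 459 of 586 genes called lower (78.3%) and 273 of 425 called higher (64.2%), in 25 of the 43 shared genes (58.1%) and in 61.3% of the 5639 genes, but the 48 h libraries enter both sides of that count. The labels give no day, batch or density for any library, and what the replicates share was not tested.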
